A study of Homo sapiens with 12 samples.

Results

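The genes described here encode transporters that move organic anions and drugs across the membrane of kidney tubule cells: 4 organic anion uptake carriers (SLC22A6, SLC22A7, SLC22A8 and SLC22A11) and 6 ATP-driven efflux pumps (ABCG2, ABCB1, ABCC1, ABCC2, ABCC3 and ABCC4). They were taken by name, and every Affymetrix probe set annotated to exactly 1 of these 10 symbols was included, whatever its value. This gave 25 probe sets of the 54675 on the array. The cells were HK-2, which is an established line of immortalised epithelium from human proximal tubules, in serum-free culture supplemented with insulin, hydrocortisone and EGF. There were 4 groups of 3 arrays: cells given vehicle for 24 h, cells given a low dose of Ota for 24 h, and the same treatments for 72 h. No concentration is stated. Ota is not written out in the labels either; it is the usual abbreviation of ochratoxin A, a nephrotoxic mycotoxin. The 3 arrays of a group are labelled biological replicates of a single line, with nothing said about what the cultures shared, so the p-values cover the spread of these cultures only, which may be technical.

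In the proximal tubule, carriers of the SLC22 family at the basolateral membrane take anions from blood by exchanging them for dicarboxylates. SLC22A11 is an anion exchanger of the luminal membrane. The ABC pumps then drive anions, conjugates and hydrophobic drugs out of the cell with energy from ATP: ABCB1 (P-glycoprotein), ABCG2, ABCC2 and ABCC4 mainly into urine, ABCC1 and ABCC3 mainly back towards blood. Ochratoxin A is an organic anion that several of these proteins are known to carry. The comparisons asked whether transcripts of these genes were measurable in HK-2 cells, and whether they differed with Ota or with time in culture.

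Values are log2 GCRMA values, in which background is subtracted and unhybridised probe sets crowd at a low level, the floor. The most frequent value was between 2.32 and 2.35 on each array. A probe set was called at the floor where all arrays of a group were below 3. It was tested where at least 3 arrays were above 4, which 22477 of the 54613 probe sets other than controls passed. Of the 25 transporter probe sets, 12 were at the floor in all 4 groups, 1 lay between floor and filter, and 12 passed. Among all probe sets other than controls, 45.7% were at the floor in all groups. Levels of different probe sets are not comparable with each other, since each has its own affinity.

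To show the kind of sequence upstream of these genes, the 250 bases before the annotated start are given for the 2 pumps with a window and a called probe set, and for 1 uptake carrier at the floor. They come from RefSeq on GRCh38.p14, read 5′ to 3′ on the gene's strand, and were chosen after the values had been seen. Capitals mark matches, on either strand, to the core of the aryl hydrocarbon receptor element (GCGTG), the antioxidant response element (TGACNNNGC), the inverted CCAAT box (ATTGG) and the GC box (GGGCGG).
ABCB1, chr7:87600885-87601134, minus strand: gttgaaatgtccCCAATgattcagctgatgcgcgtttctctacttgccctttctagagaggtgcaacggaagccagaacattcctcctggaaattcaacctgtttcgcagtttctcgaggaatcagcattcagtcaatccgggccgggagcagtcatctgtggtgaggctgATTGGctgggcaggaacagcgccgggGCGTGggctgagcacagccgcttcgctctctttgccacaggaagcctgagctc
ABCC4, chr13:95301452-95301701, minus strand: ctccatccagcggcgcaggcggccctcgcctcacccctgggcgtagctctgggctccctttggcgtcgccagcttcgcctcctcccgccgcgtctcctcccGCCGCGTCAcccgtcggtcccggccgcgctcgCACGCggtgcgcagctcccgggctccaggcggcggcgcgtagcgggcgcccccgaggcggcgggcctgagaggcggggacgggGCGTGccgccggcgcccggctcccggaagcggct
SLC22A6, chr11:62984968-62985217, minus strand: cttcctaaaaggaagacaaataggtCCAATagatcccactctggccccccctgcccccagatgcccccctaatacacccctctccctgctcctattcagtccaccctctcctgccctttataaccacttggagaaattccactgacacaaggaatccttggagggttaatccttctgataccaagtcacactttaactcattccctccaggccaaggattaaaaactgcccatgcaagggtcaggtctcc

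The windows differ in CpG dinucleotides: 42 in ABCC4, 12 in ABCB1 and 0 in SLC22A6, where the median of 35116 windows was 11. ABCC4 held 2 matches to GCGTG and 1 to TGACNNNGC, ABCB1 held 1 to GCGTG and 2 to ATTGG, and SLC22A6 held 1 to ATTGG. No 2 of these matches overlapped within a window. Over all windows, 32.2% held GCGTG, 10.9% TGACNNNGC, 32.0% ATTGG and 42.6% GGGCGG. A match is a description of letters and not a shown binding site. Of the 10 genes 6 had a window in the table, 11 windows in all. Another annotated start of ABCB1, chr7:87713296-87713545, held 1 CpG and no match.

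The uptake carriers did not reach the filter in any group. Of their 10 probe sets 9 were at the floor in all 4 groups, 1 lay between floor and filter and 0 passed. SLC22A6 (OAT1), the main basolateral exchanger of small anions, ranged from 2.29 to 2.33 over the 12 arrays on 210343_s_at and from 1.84 to 1.86 on 216599_x_at. SLC22A8 (OAT3), the basolateral exchanger of larger anions, ranged from 2.32 to 2.36 on 231352_at and from 2.16 to 2.19 on 221298_s_at. SLC22A11 (OAT4), the luminal exchanger, ranged from 2.10 to 2.13 on its single probe set, 220100_at. In each of these 3 genes the whole spread over 12 arrays was a few hundredths of a log2 unit, with control and Ota arrays inside it.

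SLC22A7 (OAT2), a carrier of anions and nucleotides, had 5 probe sets, of which 4 were at the floor. The exception, 220554_at, was at 3.37, 3.52 and 3.44 in control cells and 3.53, 3.79 and 3.58 in cells given Ota at 24 h, and at 3.53, 3.52 and 3.57 in control cells and 3.52, 3.5 and 3.47 in cells given Ota at 72 h. It lay above 3 and below 4 on all 12 arrays and was therefore not tested. The Ota arrays lay above the control arrays at 24 h, by little, and below them at 72 h, again by little. On 221662_s_at 1 Ota array at 24 h was at 2.55 and on 1555553_a_at 1 control array at 24 h was at 2.40, both still below the floor threshold.

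Among the pumps, ABCG2 and ABCC2 were at the floor as well. ABCG2 (BCRP), a luminal pump that works as a dimer, ranged from 2.02 to 2.05 on 209735_at, its only probe set. ABCC2 (MRP2), the luminal pump for conjugated anions, ranged from 2.33 to 2.44 on 206155_at. A value at the floor says that these probes gave no signal over modelled background. It does not show that the gene is silent, since no array here carries a sample known to express it. One probe set of ABCC4, 243928_s_at, was also at the floor, between 2.47 and 2.56, although the other 3 probe sets of that gene were far above the filter on all 12 arrays.

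**Figure D1:**
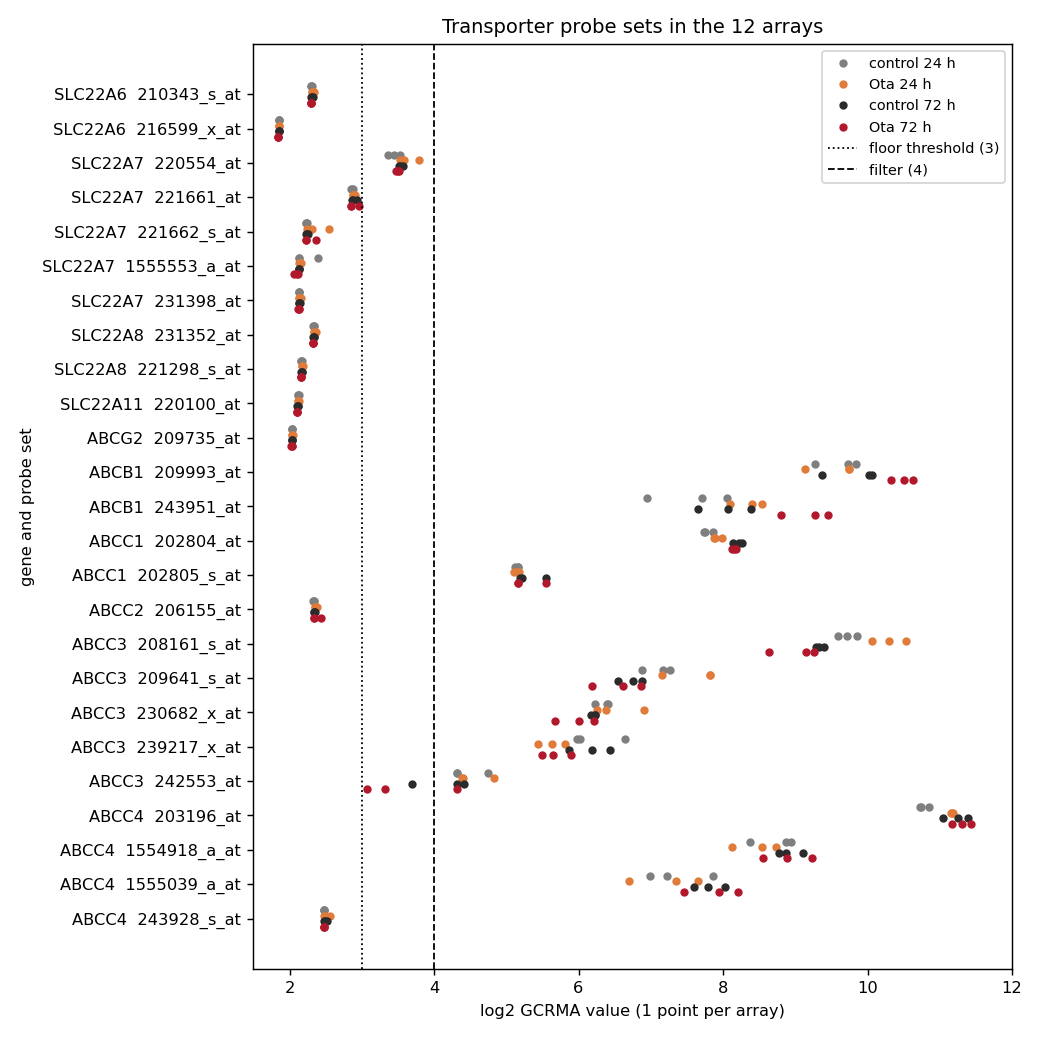
Log2 GCRMA value (horizontal axis) of each of the 25 transporter probe sets (vertical axis), with 1 point per array coloured by group, 3 arrays per group; the dotted line is the floor threshold of 3 and the dashed line the filter of 4. The SLC22A, ABCG2 and ABCC2 probe sets lie left of the filter, and the 12 probe sets of ABCB1, ABCC1, ABCC3 and ABCC4 that passed lie right of it, with 3 arrays of 242553_at left of it.

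The markers of the proximal tubule were mostly low. Of the related transport genes listed below, PDZK1, SLC17A1, SLC17A3 and SLCO4C1 were among those above the filter. Among those not above it were SLC22A2, SLC22A12, SLC13A2, SLC13A3, SLC47A1 and SLC47A2. Of 10 listed proximal tubule markers only GATM was above the filter, and CUBN, AQP1, SLC34A1, SLC5A2 and ANPEP were below 3 on all 12 arrays. Of other cell types, 3 of 7 fibroblast markers (DCN, LUM and COL1A1), 2 of 7 distal nephron, 2 of 4 podocyte, 1 of 4 hepatocyte (SERPINA1), 0 of 6 endothelial and 0 of 5 leukocyte markers passed. Arrays of a group correlated at r = 0.982 to 0.993 over the probe sets tested. As a sign of RNA quality, the actin controls at the 3′ end exceeded those at the 5′ end, on the log2 scale, by 0.89 to 1.24 in control and 1.06 to 1.30 in Ota arrays at 24 h, and by 1.00 to 1.33 and 1.19 to 1.33 at 72 h. Fewer copies per cell and fewer cells expressing a gene cannot be told apart in these bulk samples.

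At 24 h the pumps ABCC3 and ABCC4 were higher in Ota cells on their brightest probe set, and ABCC1 and the brightest ABCB1 probe set were not called. The question was which transcripts differed after a day of exposure. Of the 12 probe sets tested 2 were higher, 0 were lower and 10 did not pass (limma, adjusted p below 0.05). Over all probe sets tested 31.0% were called, 12.9% higher and 18.1% lower, and the transporter probe sets give no result beyond that background. At an unadjusted p below 0.05 in limma 4 were higher and 1 lower. Here and below, the share of all probe sets at that unadjusted threshold was not counted, so such counts show no excess. The median log2 difference of the 12 was 0.10, beside -0.02 over all probe sets. Over all probe sets 2900 were called higher and 4071 lower as deposited. With array medians equalised these were 3358 and 3630, and the median over all was 0.02. At 24 h the summed levels of every marker list above overlapped between Ota and control arrays.

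ABCC4 (MRP4), which exports urate, cyclic nucleotides and anionic drugs, was at 10.85, 10.73 and 10.74 in control cells and 11.18, 11.16 and 11.17 in cells given Ota at 24 h on 203196_at. The 3 Ota arrays lay within a few hundredths of each other and all above the controls. The rise was 1.32-fold (log2 difference 0.40 ± 0.11, SE, n = 3 per group; limma, adjusted p = 0.0152), and it passed in every fit on probe sets that was run. The other tested probe sets of the gene did not share it. On 1554918_a_at ABCC4 was at 8.93, 8.87 and 8.37 in control and 8.73, 8.12 and 8.55 in Ota cells, a difference of -0.26 ± 0.22 (limma, adjusted p = 0.41). On 1555039_a_at it was at -0.12 ± 0.28 (limma, adjusted p = 0.797), with overlapping groups. Averaged over its 4 probe sets, with the one at the floor included, ABCC4 was at 0.01 (limma, adjusted p = 0.96). What each probe set reads of the gene's transcripts was not tested.

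ABCC3 (MRP3), a basolateral pump for glucuronide conjugates, was at 9.71, 9.85 and 9.59 in control cells and 10.30, 10.53 and 10.06 in cells given Ota at 24 h on 208161_s_at. All Ota arrays were above all controls, and the rise was 1.49-fold (0.58 ± 0.17, SE, n = 3 per group; limma, adjusted p = 0.0208). The call was near the threshold. Adjusted p was 0.0548 or 0.0641 with control 24 h replicate 1 or 3 left out, 0.0538 or 0.0845 with Ota 24 h replicate 1 or 2 left out, and 0.0659 without the filter on low values.

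The other ABCC3 probe sets were divided. On 209641_s_at the gene was at 7.26, 7.17 and 6.88 in control and 7.82, 7.82 and 7.15 in Ota cells, where the groups overlapped in 1 Ota array. That difference was 0.49 ± 0.21 (limma, adjusted p = 0.108). It passed in 1 of 13 other settings, without Ota 24 h replicate 3 (0.72, limma, adjusted p = 0.0198). Over these settings it ranged from 0.38 to 0.72, with limma's adjusted p up to 0.297. On 230682_x_at and 242553_at the differences were 0.17 ± 0.17 and 0.08 ± 0.30 (limma, adjusted p = 0.498 and 0.887). On 239217_x_at the direction was opposite: 6.64, 6.01 and 5.97 in control and 5.64, 5.82 and 5.44 in Ota cells, with every Ota array below every control (-0.58 ± 0.20; limma, adjusted p = 0.0507). It was at -0.70 without control 24 h replicate 3 (adjusted p = 0.0393), at -0.36 without control 24 h replicate 1 (0.184), and passed with the filter at 5 (0.0465). The suffix x marks probe sets whose probes can match other transcripts. Over the 12 arrays 208161_s_at correlated with 209641_s_at at r = 0.96, with 230682_x_at at 0.84 and with 242553_at at 0.77, but with 239217_x_at at -0.05. These are descriptions over arrays that share their groups. The mean of the 5 probe sets was at 0.15 (limma, adjusted p = 0.518).

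ABCB1, the P-glycoprotein gene, gave different readings at 24 h. On 209993_at it was at 9.84, 9.27 and 9.73 in control and 9.74, 9.13 and 9.75 in Ota cells, a difference of -0.07 ± 0.23 (limma, adjusted p = 0.853; 95% interval -0.58 to 0.43). On 243951_at it was at 7.70, 6.95 and 8.06 in control and 8.55, 8.10 and 8.40 in Ota cells, where all Ota arrays were higher (0.78 ± 0.28; limma, adjusted p = 0.0597). Over 13 other settings the latter ranged from 0.47 to 1.02, with limma's adjusted p up to 0.201, and it passed in 5. Without control 24 h replicate 3 it was at 1.02 (limma, adjusted p = 0.0221). It also passed once array medians were equalised, at 0.83 (limma, adjusted p = 0.0377), with quantile normalization repeated (0.0413) and with a variance trend (0.0484). In every group replicate 2 was the lowest of the 3 arrays on both ABCB1 probe sets, and same-numbered control and Ota arrays at 24 h deviated together over all probe sets. With the replicate number as a block, 4 of the 12 member probe sets were called at 24 h, beside 7767 of the 22477 tested. Also called then were 243951_at, higher (limma, adjusted p = 0.00414), and 239217_x_at of ABCC3, lower (limma, adjusted p = 0.0203).

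ABCC1 (MRP1), a basolateral pump for glutathione conjugates, was at 7.75, 7.73 and 7.86 in control cells and 7.89, 7.88 and 7.98 in cells given Ota at 24 h on 202804_at. The Ota arrays were all higher, by 0.13 ± 0.08 (limma, adjusted p = 0.243; 95% interval -0.04 to 0.31), which did not pass. On 202805_s_at ABCC1 was between 5.11 and 5.18 on the 6 arrays at 24 h. Arrays of the treatments were fully separated in 5 of the 12 probe sets, 4 with Ota higher and 1 with Ota lower, where 42.3% of all probe sets tested were separated.

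At 72 h both ABCB1 probe sets were called higher, 1 of them at the threshold, while ABCC1, ABCC3 and ABCC4 were not called. The question was the same, after 3 days of exposure. Of the 12 probe sets 2 were higher, 0 lower and 10 not called. Over all probe sets tested 28.2% were called, 16.4% higher and 11.8% lower. The transporter probe sets as a group again give no result beyond that background. At an unadjusted p below 0.05 in limma 2 were higher and 1 lower. Over all probe sets tested the balance of calls depended on scaling: 3695 were higher and 2649 lower as deposited, and 3115 and 3401 once array medians were equalised. The median over the 12 probe sets was -0.04, beside 0.02 over all.

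ABCB1 on 243951_at was at 8.39, 7.65 and 8.07 in control cells and 9.27, 8.80 and 9.45 in cells given Ota at 72 h. Every Ota array was above every control array, and the rise was 2.2-fold (1.14 ± 0.28, SE, n = 3 per group; limma, adjusted p = 0.0121). It passed with each array left out in turn, though not without the filter on low values (adjusted p = 0.0552). On 209993_at ABCB1 was at 10.06, 9.37 and 10.02 in control and 10.50, 10.32 and 10.63 in Ota cells, again with no overlap, and rose 1.59-fold (0.67 ± 0.23; limma, adjusted p = 0.0493). That call was at the threshold: it was lost with any 1 of the 6 arrays at 72 h left out, at differences of 0.45 to 0.79 and adjusted p of 0.0513 to 0.171. With array medians equalised it was at 0.60 (limma, adjusted p = 0.0598), and without the filter adjusted p was 0.158. A probe set annotated to both ABCB4 and ABCB1, 209994_s_at, which is no member, was at 0.58 ± 0.21 (limma, adjusted p = 0.0637). ABCB4 itself was at the floor on its own probe set.

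Summed levels of some marker lists also moved at 72 h. The fibroblast markers were at 10.12 to 10.67 in control and 11.19 to 11.74 in Ota arrays on the log2 scale, with 3 of 7 above the filter and COL3A1, PDGFRA and PDGFRB below 3 on every array. The hepatocyte list, carried by SERPINA1, was at 11.49 to 11.61 and 11.97 to 12.27, with APOA1 and TTR below 3. The proximal tubule list, carried by GATM, was at 7.76 to 7.99 and 8.28 to 8.48. The leukocyte list, with none above the filter, was at 4.79 to 4.83 and 4.78, and the other lists overlapped. Their part in the ABCB1 result was not tested.

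The remaining pumps at 72 h gave no called difference. ABCC4 on 203196_at was at 11.25, 11.39 and 11.04 in control and 11.31, 11.44 and 11.16 in Ota cells (0.08 ± 0.11; limma, adjusted p = 0.63; 95% interval -0.16 to 0.32). ABCC1 on 202804_at was at -0.05 ± 0.08 (limma, adjusted p = 0.661; 95% interval -0.23 to 0.12). ABCC3 on 208161_s_at was at 9.29, 9.32 and 9.40 in control and 9.15, 8.64 and 9.26 in Ota cells. All 3 Ota arrays were lower, by 0.32 on average, but the difference did not pass (-0.32 ± 0.17; limma, adjusted p = 0.175). The other ABCC3 probe sets were also below 0, among them 239217_x_at at -0.48 ± 0.20 (limma, adjusted p = 0.1, 95% interval -0.93 to -0.04). They ranged from -0.17 on 209641_s_at to -0.57 on 242553_at. The latter probe set was at 3.33, 3.08 and 4.31 in Ota cells, near the floor on 2 arrays. It was called in 1 of 12 other settings, without Ota 72 h replicate 3 (-0.94, limma, adjusted p = 0.0185). Over these settings it ranged from -0.94 to -0.32, with limma's adjusted p up to 0.504. In 3 of the 12 probe sets the groups did not overlap at 72 h, with Ota higher in 2 and lower in 1, where 49.2% of all probe sets tested did not.

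**Figure D2:**
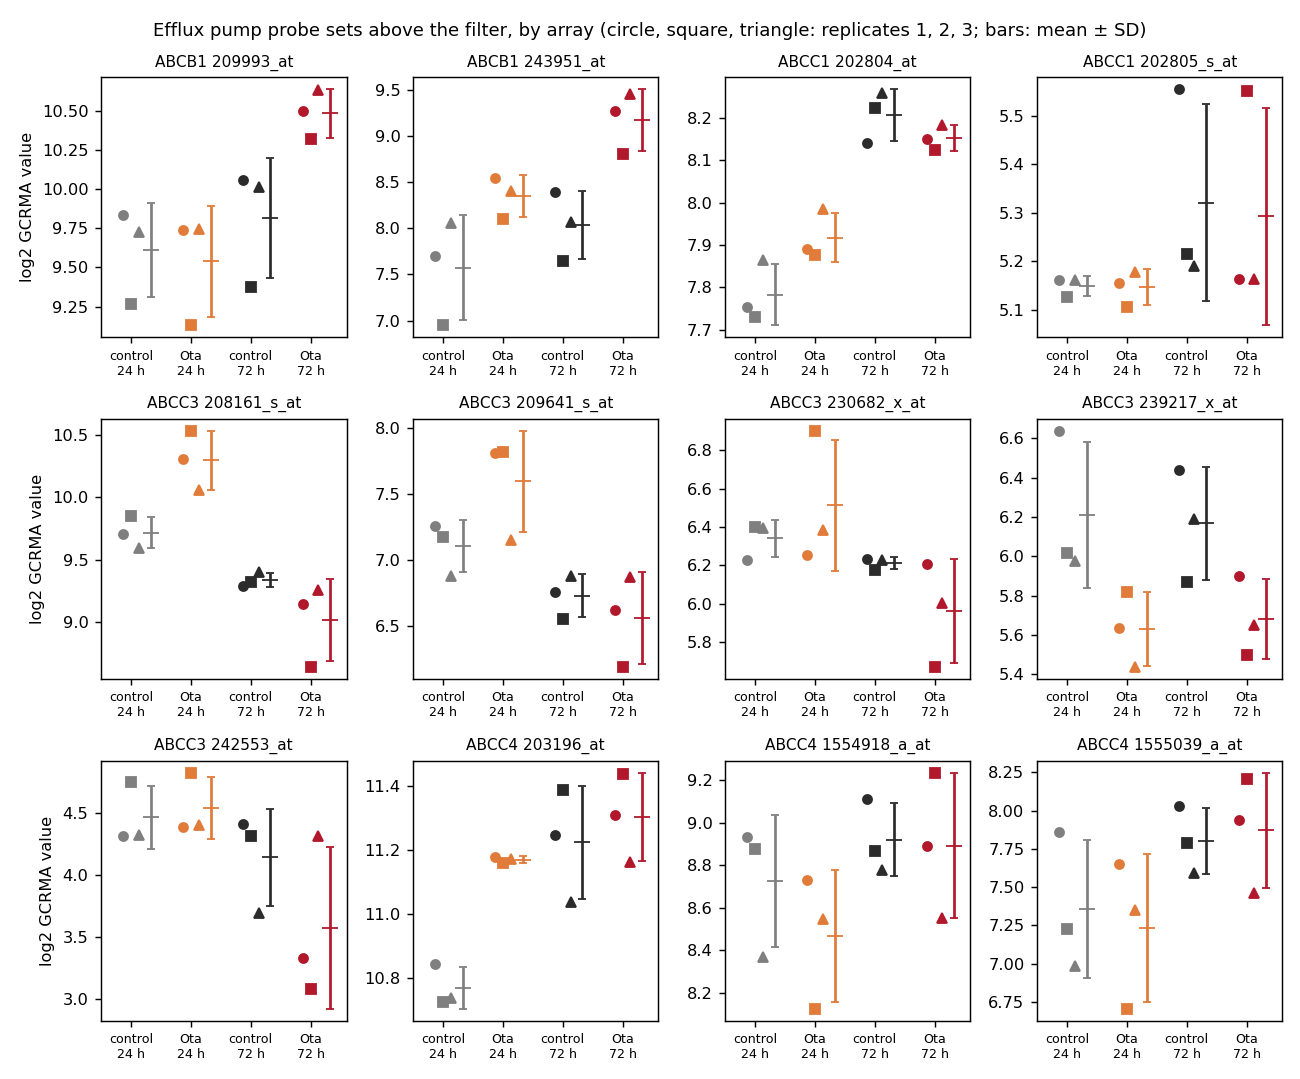
Log2 GCRMA value (vertical axes, each panel on its own scale and not starting at 0) of the 12 transporter probe sets above the filter, by group; symbols are single arrays (circle, square and triangle for replicates 1, 2 and 3) and bars the mean ± SD over 3 arrays. ABCB1 is highest in Ota cells at 72 h, ABCC3 on 208161_s_at is highest in Ota cells at 24 h, and ABCC4 on 203196_at is lowest in control cells at 24 h.

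**Figure D3:**
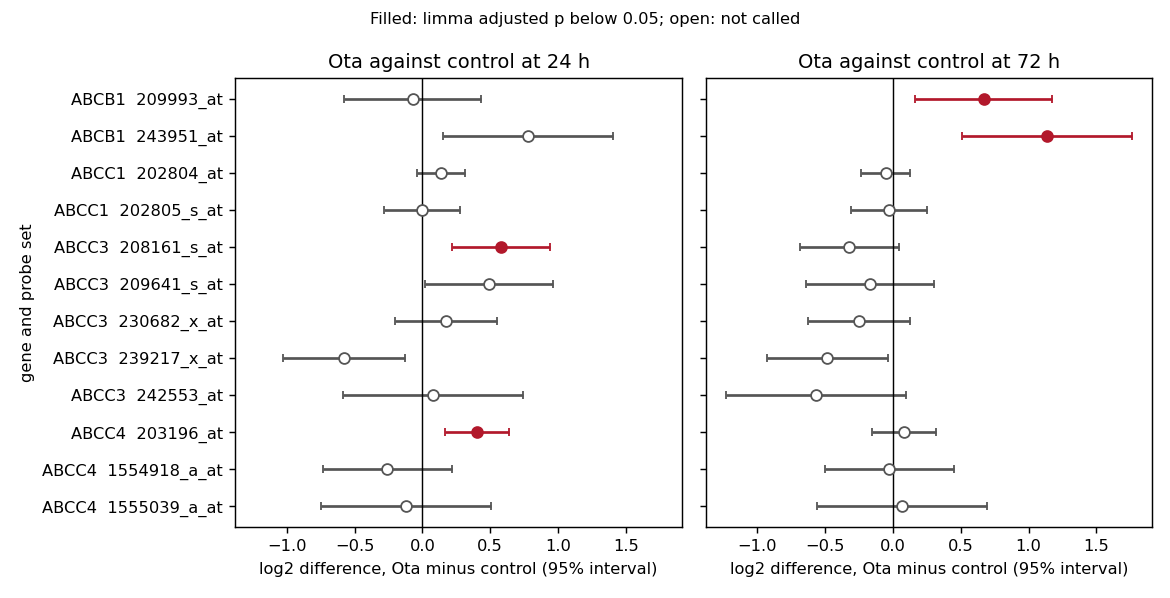
Log2 difference between Ota and control cells (horizontal axis) with its 95% interval from limma, for the 12 probe sets tested (vertical axis), at 24 h and at 72 h; filled points passed an adjusted p of 0.05. ABCC3 208161_s_at (0.58) and ABCC4 203196_at (0.40) are filled at 24 h, and the ABCB1 probe sets (0.67 and 1.14) at 72 h.

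The response to Ota differed between the times on 1 probe set of ABCC3. On 208161_s_at it was 0.58 at 24 h and -0.32 at 72 h, and the difference, 72 h minus 24 h, was -0.90 ± 0.23 (SE; limma, adjusted p = 0.0247). It was the only one of the 12 probe sets called, where 17.0% of all probe sets tested were, 11.2% higher and 5.77% lower. Leaving out control 24 h replicate 1 (adjusted p = 0.0507), Ota 24 h replicate 2 (0.0556), control 72 h replicate 3 (0.0548) or the filter (0.0751) lost the call. Averaged over the 5 probe sets of ABCC3 the difference was -0.51 (limma, adjusted p = 0.129), and on 239217_x_at it was 0.09. On 209641_s_at it was -0.66 ± 0.30 (limma, adjusted p = 0.161). That was called in 1 of 18 other settings, without Ota 24 h replicate 3 (-0.88, adjusted p = 0.044), and adjusted p reached 0.305. Before adjustment limma gave p below 0.05 for 1 higher and 1 lower probe set. The ABCC4 probe set that rose at 24 h had a smaller response at 72 h, but on 203196_at the difference was -0.32 ± 0.15 (limma, adjusted p = 0.176). For ABCB1 the difference was 0.74 ± 0.32 on 209993_at and 0.36 ± 0.40 on 243951_at (limma, adjusted p = 0.142 and 0.585). With the replicate number as a block 209993_at passed (limma, adjusted p = 0.0106), as did 209994_s_at, annotated to ABCB4 and ABCB1 (0.011). By the check the numbers did not pair control with Ota arrays at 72 h. Over all probe sets tested, 2516 were higher and 1298 lower as deposited, against 1872 and 1988 with array medians equalised and 2115 and 1732 with quantile normalization repeated. The median of all moved from 0.05 to -0.07 with the shift.

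In control cells from 24 h to 72 h, ABCC4 on 203196_at rose 1.37-fold (0.45 ± 0.11; limma, adjusted p = 0.00617) and ABCC1 on 202804_at rose 1.34-fold (0.43 ± 0.08; limma, adjusted p = 0.00171). In each of these all 72 h arrays were above all 24 h arrays, and no setting of the fit on probe sets lost the call. Averaged over its probe sets ABCC4 was at 0.28 (limma, adjusted p = 0.124). These were 2 of 12 probe sets, with 0 lower, where 39.9% of all were called, 20.2% higher and 19.7% lower. At an unadjusted p below 0.05 in limma 2 were higher and 1 lower. The groups did not overlap in 5 of the 12, beside 50.9% of all. ABCC3 was lower at 72 h on 208161_s_at, at -0.38 ± 0.17, which did not pass (limma, adjusted p = 0.0908) unless only the control arrays were fitted (0.0317). ABCB1 on 243951_at was at 0.46 ± 0.28 (limma, adjusted p = 0.22). It passed in 1 of 13 other settings, with the replicate number as a block (adjusted p = 0.0357), and adjusted p reached 0.674. In control cells the summed fibroblast markers were at 11.74 to 12.32 at 24 h and 10.12 to 10.67 at 72 h, the list carried by SERPINA1 at 12.03 to 12.75 and 11.49 to 11.61, and the list carried by GATM at 8 to 8.70 and 7.76 to 7.99. The other lists overlapped, and the part of these in the changes was not tested.

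In Ota cells from 24 h to 72 h ABCC3 fell on 4 of its 5 probe sets. On 208161_s_at it fell by 1.28 ± 0.17 (limma, adjusted p = 0.000532) and on 209641_s_at by 1.04 ± 0.21 (limma, adjusted p = 0.00539), with no overlap of the arrays in either. On 230682_x_at it fell by 0.55 ± 0.17 and on 242553_at by 0.97 ± 0.30 (limma, adjusted p = 0.0348 and 0.0355). The latter calls were lost with single arrays left out, 230682_x_at without Ota 24 h replicate 2, Ota 72 h replicate 2 or Ota 72 h replicate 3, and 242553_at without any of Ota 24 h replicates 1 to 3 or Ota 72 h replicates 1 and 2, at adjusted p of 0.0516 to 0.133 in all. They were also lost without the filter (0.1 and 0.122) and with only the Ota arrays fitted (0.107 and 0.0797). On 239217_x_at the value was 0.05 ± 0.20 (limma, adjusted p = 0.877). ABCB1 rose 1.93-fold on 209993_at (0.95 ± 0.23, limma, adjusted p = 0.0115). On 243951_at it was at 0.82 ± 0.28 (limma, adjusted p = 0.052). That difference passed in 5 of 13 other settings, among them without Ota 72 h replicate 2 (1.01, adjusted p = 0.0463). Over these settings it ranged from 0.69 to 1.01, with limma's adjusted p up to 0.164. ABCC1 on 202804_at was at 0.24 ± 0.08 (limma, adjusted p = 0.0506), with all 72 h arrays higher. In all 1 rose and 4 fell of the 12, where 27.6% of all probe sets were called, 17.7% higher and 9.94% lower. The groups did not overlap in 7 of the 12, beside 47.9% of all. The summed fibroblast markers were at 11.77 to 12.29 in Ota cells at 24 h and 11.19 to 11.74 at 72 h, the podocyte markers at 6.44 to 6.67 and 6.07 to 6.31, and the distal nephron markers at 9.54 to 9.68 and 9.89 to 10.13. The endothelial and leukocyte lists, with none above the filter, were at 5.19 to 5.21 and 5.16 to 5.18, and at 4.79 to 4.85 and 4.78. Of the fibroblast, podocyte and distal nephron markers 3 of 7, 2 of 4 and 2 of 7 passed, with COL3A1, NPHS1 and WT1 below 3 on all arrays, and their part in the result was not tested. This comparison shares its arrays with the others. Of all probe sets 3971 were higher and 2235 lower as deposited, 2877 and 3658 with array medians equalised, and 3199 and 2954 with quantile normalization repeated.

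For ABCC3 on 208161_s_at the order of the group means was therefore Ota 24 h (10.3 ± 0.24, SD, n = 3), control 24 h (9.72 ± 0.13), control 72 h (9.34 ± 0.06) and Ota 72 h (9.01 ± 0.33), of which only the first pair of neighbours differed by the test. For ABCB1 on 209993_at it was Ota 72 h (10.5 ± 0.16), control 72 h (9.82 ± 0.38), control 24 h (9.61 ± 0.30) and Ota 24 h (9.54 ± 0.35), and the last 3 did not differ beyond their spread. For ABCC4 on 203196_at, control 24 h (10.8 ± 0.07) lay below Ota 24 h (11.2 ± 0.01), control 72 h (11.2 ± 0.18) and Ota 72 h (11.3 ± 0.14), which overlapped. For ABCC1 on 202804_at the 24 h groups (7.78 ± 0.07 in control, 7.92 ± 0.06 in Ota) lay below the 72 h groups (8.21 ± 0.06 and 8.15 ± 0.03).

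Across the 12 arrays, the genes whose brightest probe set ran most like these were named by Pearson's r among 10698 others, as a description of arrays that share groups. For ABCC4 they were F3 (r = 0.95), ZNF33A (0.94) and KICS2 (0.94). For ABCC3 they were ADAR (0.95), SLC16A14 (0.93) and ZNF407 (0.93). For ABCB1 they were PPFIBP1 (0.95), CISD1 (0.94) and HDAC9 (0.93).

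Among other carriers of anions and drugs, most calls were at 72 h. Of 23 such uptake genes listed, 19 had a probe set and 8 were tested. At 72 h 4 of the 8 were higher in Ota cells and 0 lower, where 16.4% of all probe sets tested were higher and 11.8% lower. The median over the 8 was 0.74, beside 0.02 over all probe sets, and over the settings tried 2 to 5 were higher. At 24 h 1 was higher and 0 lower. At an unadjusted p below 0.05 in limma 5 were higher and 1 lower at 72 h, and 1 and 0 at 24 h. SLCO2A1, a prostaglandin carrier, was at 6.18, 5.61 and 6.21 in control cells and 7.39, 7.35 and 7.43 in cells given Ota at 72 h, and rose 2.62-fold (1.39 ± 0.16; limma, adjusted p = 0.000116). Its 24 h levels were 7.83 ± 0.19 (SD, n = 3) in control and 7.86 ± 0.09 in Ota cells, so the lowest arrays were the controls at 72 h. SLCO4A1, an organic anion carrier, was also lowest in control cells at 72 h, at 10.4 ± 0.37 in control cells and 11.5 ± 0.23 in cells given Ota at 72 h against 11.4 ± 0.10 and 11.4 ± 0.11 at 24 h (2.05-fold at 72 h; limma, adjusted p = 0.00135).

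SLC17A3 and SLC17A1, luminal phosphate and urate transporters, were also higher at 72 h. SLC17A3 was at 7.16, 5.86 and 7.43 in control and 8.90, 7.96 and 9.42 in Ota cells (3.84-fold; limma, adjusted p = 0.0144), and lost the call without control 72 h replicate 2 (adjusted p = 0.0521) or Ota 72 h replicate 3 (0.0582). SLC17A1 rose 2.08-fold (limma, adjusted p = 0.0168), and lost the call without control 72 h replicate 2 (0.0598), Ota 72 h replicate 1 (0.0626) or Ota 72 h replicate 3 (0.0671). Its other tested probe sets, 1560884_at and 1560885_x_at, were at 0.16 and 0.21 and did not pass. SLC22A4, a carnitine and ergothioneine carrier, was higher at 24 h, at 6.36, 6.68 and 6.51 in control and 7.53, 7.73 and 7.01 in Ota cells (1.87-fold; limma, adjusted p = 0.0123, or 0.0529 without Ota 24 h replicate 2), and at -0.63 ± 0.23 at 72 h (limma, adjusted p = 0.0645). That 72 h value fell past the threshold without control 72 h replicate 1 (-0.79, adjusted p = 0.0471) or Ota 72 h replicate 2 (-0.86, 0.0191), and with array medians equalised (-0.70, 0.0457), quantile normalization repeated (-0.72, 0.0406) or the replicate number as a block (0.0307). The marker lists that moved at 72 h bear on these genes in the same way and were not tested against them.

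**Figure D4:**
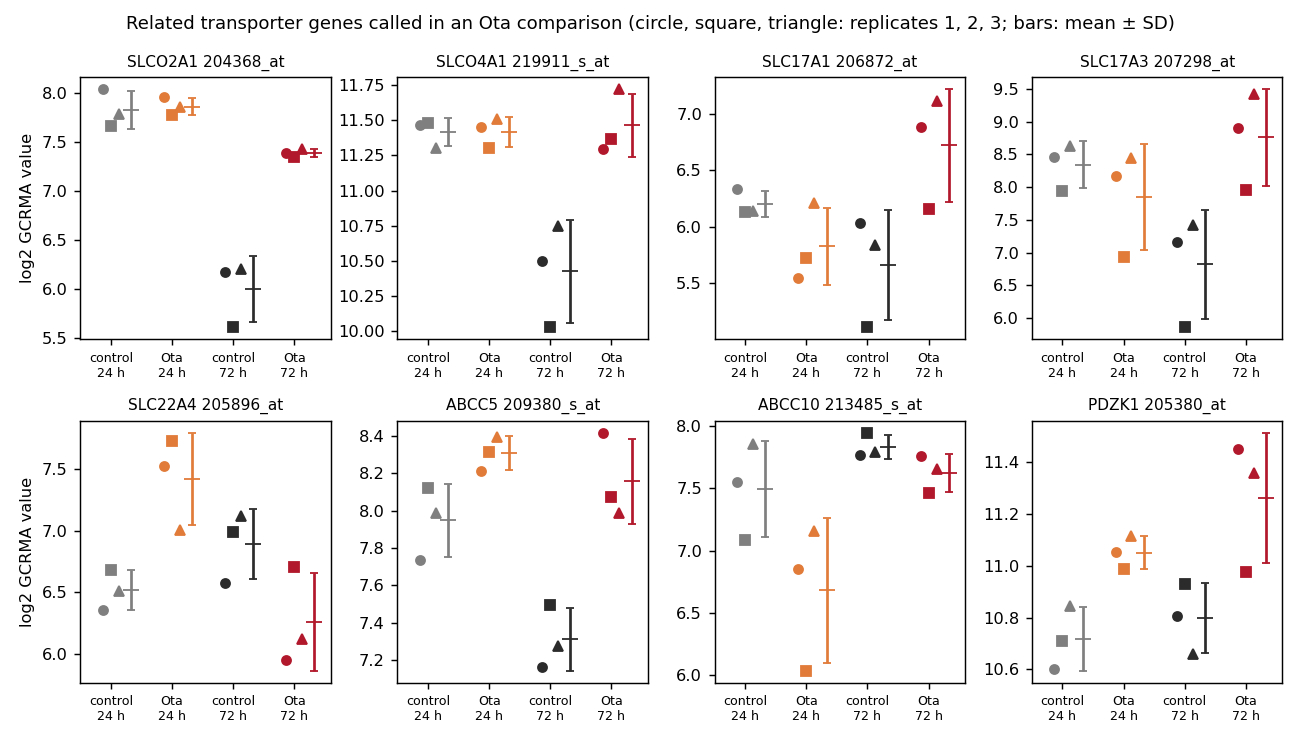
Log2 GCRMA value (vertical axes, each panel on its own scale and not starting at 0) of 8 related transport genes called in an Ota comparison, by group; symbols are single arrays (circle, square and triangle for replicates 1, 2 and 3) and bars the mean ± SD over 3 arrays. SLCO2A1 and SLCO4A1 are lowest in control cells at 72 h, at means of 6.00 and 10.4, and SLC22A4 is highest in Ota cells at 24 h, at 7.42.

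Of 11 other ABC and cation efflux genes 10 had a probe set and 3 were tested, and the other 7, with the cation exporters SLC47A1 and SLC47A2 among them, were below 3 on all arrays. ABCC5, a nucleotide exporter, rose 1.8-fold at 72 h (limma, adjusted p = 0.00138), from 7.31 ± 0.17 to 8.16 ± 0.23, though its dimmer probe set 1558460_at was at -0.14. ABCC10 fell by 0.82 ± 0.26 at 24 h (limma, adjusted p = 0.0349). Leaving out control 24 h replicate 1 (0.0897) or 3 (0.116), or Ota 24 h replicate 1 (0.0508) or 2 (-0.49, 0.11), lost that call, as did fitting only the groups compared (0.129). The other ABCC10 probe set, 215873_x_at, was at -0.63 (limma, adjusted p = 0.00585). The counts were 1 lower and 0 higher at 24 h, and 1 higher and 0 lower at 72 h. ABCC5 was higher at 24 h too by limma's unadjusted p below 0.05.

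Of 7 exchange partners and scaffolds 4 were tested. SLC13A2 and SLC13A3, the dicarboxylate carriers that feed the anion exchangers, were below the filter. PDZK1, a scaffold of luminal transporters, rose 1.38-fold at 72 h (limma, adjusted p = 0.0219). It lost the call without control 72 h replicate 1 (0.0562) or 3 (0.085), without Ota 72 h replicate 1 (0.0924) or 3 (0.0751), and with only the groups compared fitted (0.0546). None of the 4 was called at 24 h by limma, and 1, PDZK1, had an unadjusted p below 0.05. Of 12 regulators of transporter genes 7 had a probe set and 6 were tested. ARNT, the partner of the aryl hydrocarbon receptor, fell by 0.64 ± 0.16 at 24 h (limma, adjusted p = 0.0104), and its other tested probe sets were lower as well, at -0.73, -0.99 and -2.04, of which the last 2 passed (limma, adjusted p = 0.0332 and 6.27e-05). At 72 h the brightest ARNT probe set was at -0.31 (limma, adjusted p = 0.181). The others, in the same order, were at -0.51, -0.40 and -0.78, of which the last passed (limma, adjusted p = 0.0262). KEAP1, the inhibitor of NRF2, rose 1.21-fold at 72 h (limma, adjusted p = 0.0326). That call was lost with any 1 of control 72 h replicates 1 to 3 or Ota 72 h replicates 2 and 3 left out, at adjusted p of 0.0684 to 0.106, with array medians equalised (0.139) and with quantile normalization repeated (0.0823). AHR itself was at 0.34 and 0.19 and NFE2L2, which encodes NRF2, at 0.16 and 0.02 at 24 h and 72 h, and none of these passed.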

How the data were processed

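RNA of 12 cultures was labelled as biotinylated cRNA and hybridised to Affymetrix arrays, per the labels' protocols. The deposited values are log2 values per probe set that the authors made with GCRMA, per the submitters' processing notes. Its version and settings are not given in the sources used here. GCRMA's background model sets the floor, and its quantile step hides shifts of all RNA. Arrays have no read depth, and their number limits the precision.

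Symbols came from the platform annotation, updated by gene identifier through RefSeq (GRCh38.p14): 41091 probe sets had 1 symbol, 1801 several and 11721 none. The 62 control probe sets were left out. All other probe sets above 4 on at least 3 arrays were fitted with 1 mean per group in limma 3.58.1 under R 4.3.3 (lmFit, eBayes, Benjamini-Hochberg over the 22477 probe sets, called below an adjusted p of 0.05; residual degrees of freedom 8, prior 2.93). The fit was on probe sets because the genes were chosen as probe sets; 1 value per gene was an alternative. The script was tested on simulated data. Python 3.11.15 with matplotlib 3.10.9 drew the figures.

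Every member was named. Genes of the related lists were named where called, up to 4 per list and comparison by smallest p, by their probe set with the highest mean. Of genes most like a member, 3 each were named for the 3 members with the smallest adjusted p in an Ota against control comparison. The members, lists and tests were chosen with earlier results of these data known, and the promoter windows and the alternatives for related genes were added after seeing the values. Alternatives were other filters, scalings, a variance trend, only the groups compared, the replicate block, 1 value per gene and each array left out.

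Pairing was checked by correlating deviations from group means of same-numbered arrays. It was 0.45, 0.35 and 0.48 between control and Ota arrays at 24 h and 0.29, 0.12 and 0.25 between control arrays of the 2 times. Same-numbered arrays thus deviated together there. Between control and Ota arrays at 72 h it was 0.10, -0.04 and 0.18. The main fit had no replicate block, so its p-values at 24 h do not use this pairing. The block was run as an alternative only.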

Additional observations from a re-analysis of the deposited data

Results flagged for a closer look

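The following responses to Ota differed between 24 h and 72 h by limma's test of the difference, given as 72 h minus 24 h on the log2 scale with its standard error. Among the 10 transporter genes this held for ABCC3 on 208161_s_at, at -0.90 ± 0.23 (limma, adjusted p = 0.0247).

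Of the related genes, SLCO2A1 was at 1.35 ± 0.22 (limma, adjusted p = 0.00318) and SLCO4A1 at 1.03 ± 0.25 (limma, adjusted p = 0.0172). SLC17A3 was at 2.43 ± 0.71 (limma, adjusted p = 0.0388) and SLC17A1 at 1.43 ± 0.40 (limma, adjusted p = 0.0325). SLC22A4 went the other way, at -1.54 ± 0.33 (limma, adjusted p = 0.0111), and KEAP1 was at 0.43 ± 0.12 (limma, adjusted p = 0.0357). Calls were lost for SLC17A3 without any 1 of control 24 h replicates 1 and 3, Ota 24 h replicates 1 and 2, control 72 h replicates 1 and 2 and Ota 72 h replicates 1 and 3. SLC17A1 lost its call in the same cases except control 72 h replicate 1. KEAP1 lost it without any 1 of control 24 h replicates 1 and 2, Ota 24 h replicates 1 and 2, control 72 h replicates 1 to 3 and Ota 72 h replicates 2 and 3. It was also lost for KEAP1 with array medians equalised (limma, adjusted p = 0.153). With quantile normalization repeated KEAP1 (0.075) and SLC17A1 (0.0533) lost theirs. Without the filter on low values SLCO4A1 (0.0575), SLC17A3 (0.145) and SLC17A1 (0.118) did. Over their settings adjusted p reached 0.0123 for SLCO2A1, 0.0575 for SLCO4A1, 0.145 for SLC17A3, 0.118 for SLC17A1, 0.0453 for SLC22A4 and 0.153 for KEAP1. Groups of 3 arrays were too small for a search for outlying samples.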

How the results depend on the processing

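No direction of a called member reversed under any setting, and the number of members at the floor was 9 with a threshold of 2.5 and 12 with 3.5.

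Without the filter on low values 1 member was called at 24 h, 0 at 72 h and 0 in the difference of responses. Of all 54613 probe sets 5804, 4957 and 2440 were called in these comparisons. At an unadjusted p below 0.05 limma then gave 3 members at 72 h and 3 in the difference. SLC22A4 and ABCC10 at 24 h and SLC17A3, SLC17A1 and PDZK1 at 72 h were lost too, at adjusted p of 0.0522 to 0.124. The cause was not tested. With array medians equalised 1 member was called at 72 h, beside 6516 of the 22477 probe sets. The replicate block gave 4 members at 24 h, beside 7767 of all probe sets, and 2 in the difference of responses, beside 4665. In that difference ABCB1 209993_at also passed (limma, adjusted p = 0.0106). By the check the numbers did not pair control with Ota arrays at 72 h. The block also changed the calls named in the text. In Ota cells over time ABCB1 243951_at and ABCC1 202804_at then passed (limma, adjusted p = 0.00449 and 0.0381) and 242553_at did not (0.0505). At 72 h 239217_x_at was called lower (0.0448).

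With 1 value per gene fewer features were tested. With the brightest probe set 3317, 3421, 2278, 4963 and 3447 of 10699 genes were called at 24 h, at 72 h, in the difference, in control and in Ota cells over time. Of the 4 members 2, 1, 1, 2 and 3 were called. With the mean of probe sets the counts were 3048, 3181, 2027, 4620 and 3145 of 9873 genes. Of the 4 members 0, 1, 0, 1 and 2 were called (0, 2, 1, 1 and 3 at an unadjusted p below 0.05 in limma).

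With each array left out, members called ranged from 1 to 3 at 24 h, 1 to 2 at 72 h, 0 to 2 in the difference and 3 to 4 in Ota cells over time, and stayed at 2 in control cells. All calls ranged from 5471 to 6673, 4539 to 5470, 2371 to 3909, 3999 to 6207 (Ota cells) and 7429 to 8765 (control cells).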
